A study of Mus musculus with 12 samples.

Results

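The genes described here are the 7 sirtuins, Sirt1 to Sirt7, and 3 genes of NAD synthesis, Nampt, Nmnat2 and Nmnat3. They were chosen by name, and all 10 symbols matched an entry of the deposited table of 54752 genes. Messenger RNA was measured in cerebellar cortex of 12 wild-type male F1 hybrid C57BL6J/FVB mice aged 12 weeks, with 4 mice on each of 3 diets. Mice of the AL group ate freely and served as controls. DR mice received a restricted ration, in steps that began some weeks earlier, and were killed early in the dark period without their last meal. KD mice are labelled as fed a ketogenic diet, and the article does not describe this group. In the article, which covers AL and DR, the dissected piece held several folia of hemisphere, paravermis and vermis without the cerebellar nuclei. Each library thus mixes neurons, glia and vessels. In such bulk tissue, fewer cells of a type and less RNA per cell cannot be told apart.

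Sirtuins are NAD-dependent enzymes that remove acetyl and other acyl groups from proteins, or transfer ADP-ribose. SIRT1, SIRT6 and SIRT7 act mainly in the nucleus, SIRT2 mainly in the cytoplasm, and SIRT3, SIRT4 and SIRT5 in mitochondria. Each reaction consumes NAD and releases nicotinamide. NAMPT, the rate-limiting enzyme of NAD salvage, turns nicotinamide into nicotinamide mononucleotide, and the NMNAT enzymes turn that product into NAD. NMNAT2 is the form of the Golgi and axon and NMNAT3 a mitochondrial form. In brain, Sirt2 is known from myelinating oligodendrocytes and Nmnat2 from neurons. Sirtuins have long been studied as sensors of nutrient state, which is why a diet series bears on them.

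The 12 libraries held 31712084 to 40798644 counts, and in all 18 same-diet pairs the spread exceeded counting error. Each of the 10 genes passed the filter on low counts in each of the 3 comparisons of diets. Nmnat3 passed with only 4 to 18 counts a library, while the other 9 had at least 854. The tissue label was matched by its marker lists, with all 6 Purkinje cell and all 6 granule cell markers tested and summed levels of 5914 to 7470 and 5048 to 5556 CPM (counts scaled to the total of each library). Choroid plexus markers summed to 1.16 to 2.19 CPM on AL, 1.40 to 1.81 on DR and 0.971 to 9.53 on KD. The cause of the wider KD range was not tested.

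Levels of the genes were compared per kilobase of exon, as CPM divided by the exonic length in the deposited table. Nmnat2 had the highest level of the 10, at 59.9 ± 3.77 CPM per kb (SD, n = 12). Sirt2 at 25.0 ± 0.936 and Sirt4 at 24.5 ± 1.88 CPM per kb followed, and their ranges overlapped, with Sirt2 above Sirt4 in 8 of 12 libraries. Sirt6 at 12.6 ± 0.910 and Nampt at 11.4 ± 0.530 CPM per kb also overlapped. The same held for Sirt7 at 7.14 ± 0.398 and Sirt1 at 6.82 ± 0.367 CPM per kb. Sirt3 at 5.48 ± 0.296 and Sirt5 at 4.58 ± 0.336 CPM per kb came next, with overlapping ranges but Sirt3 above Sirt5 in all 12 libraries. Divided by the exonic bases that no other gene shares, the level of Sirt3 was 6.28 CPM per kb and that of Sirt1 6.91, with Sirt3 above Sirt1 in 2 of 12 libraries (DR replicate 4 and KD replicate 2). Nmnat3 was lowest by far, at 0.0657 ± 0.0258 CPM per kb. Between these pairs the ranges per total exonic length did not overlap, so on that scale the order Nmnat2, Sirt2 and Sirt4, Sirt6 and Nampt, Sirt7 and Sirt1, Sirt3 and Sirt5, Nmnat3 was present in each mouse whatever its diet. Of the mitochondrial sirtuins, Sirt4 mRNA was thus above both Sirt3 and Sirt5 on this scale. The length counts all annotated exonic bases, 2398 for Sirt4, 5973 for Sirt3 and 6093 for Sirt5, and which transcripts were present was not tested.

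**Figure D1:**
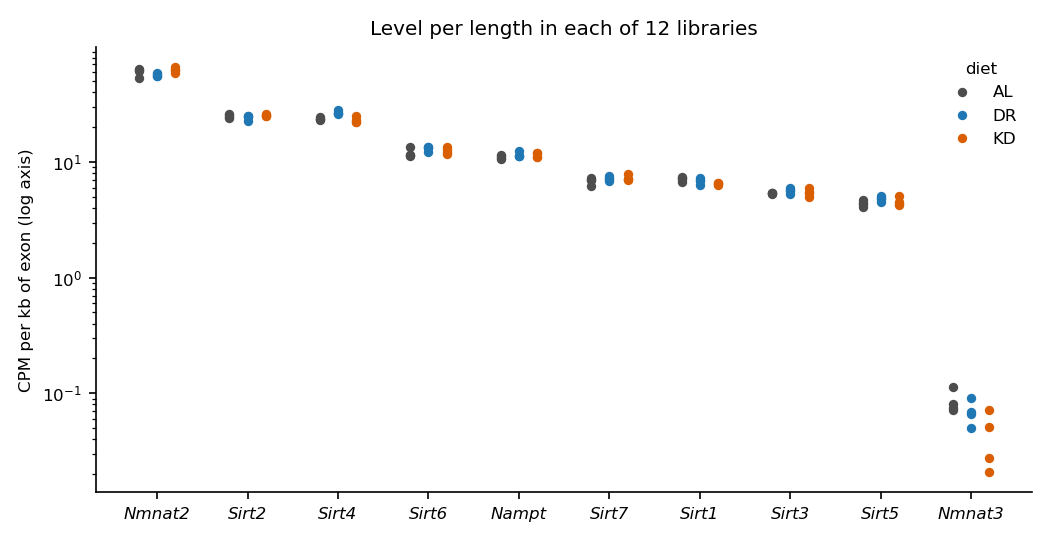
Level of each gene in CPM per kilobase of exon (log axis), with 1 point for each of the 12 libraries and colors for the 3 diets, genes ordered by their mean. Points of Nmnat2 lie between 53.7 and 66.1, those of Nmnat3 between 0.0208 and 0.114.

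The genes lie on 8 chromosomes of GRCm38.p6. Sirt4 (ENSMUSG00000029524.16, chromosome 5, 115478010 to 115484725, minus strand) is compact, with 2398 exonic bases in 6 separate exon blocks, none of which is shared with another gene. Sirt1 (ENSMUSG00000020063.16, chromosome 10, 63319005 to 63381704, minus strand) spans 62700 bases. Sirt2 (ENSMUSG00000015149.14, chromosome 7, 28766735 to 28788661, plus strand) shares 0.834% of its exonic bases with Nfkbib. Sirt3 (ENSMUSG00000025486.17, chromosome 7, 140863666 to 140882309, minus strand) shares 12.7% of its exonic bases with the opposite-strand genes Ric8a and Psmd13, and the library kit did not keep strand, so its counts are uncertain. Sirt5 (ENSMUSG00000054021.6, chromosome 13, 43365496 to 43395203, plus strand) and Sirt6 (ENSMUSG00000034748.16, chromosome 10, 81621785 to 81627797, minus strand) share no exonic base. Sirt7 (ENSMUSG00000025138.14, chromosome 11, 120618372 to 120625240, minus strand) shares 3.46%, with Mafg and Mir6936. Nampt (ENSMUSG00000020572.8, chromosome 12, 32819545 to 32853349, plus strand) shares none. Nmnat2 (ENSMUSG00000042751.14, chromosome 1, 152954993 to 153119261, plus strand) and Nmnat3 (ENSMUSG00000032456.13, chromosome 9, 98287435 to 98420438, plus strand) are the longest genes, at 164269 and 133004 bases, and share none either.

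Promoter sequence is shown for Sirt1 and Nampt, because NAD salvage is known as an output of the circadian clock and the levels of both genes are set against the clock output gene Dbp below. The clock proteins CLOCK and BMAL1 bind the E-box letters CACGTG, and the factor SP1 binds the GC box letters GGGCGG. Bases upstream of the RefSeq start of each gene (build GRCm38.p6) that lie outside annotated exons are given 5′ to 3′ on the strand of the gene, with E-box letters in capitals. Both stretches fall within the wider span of the gene in the deposited table, in intron. That of Sirt1 (minus strand, chr10:63339051-63339285) holds the E-box letters at 2 places, 115 and 43 bases upstream of the start, and that of Nampt (plus strand, chr12:32820085-32820334) at none.
Sirt1: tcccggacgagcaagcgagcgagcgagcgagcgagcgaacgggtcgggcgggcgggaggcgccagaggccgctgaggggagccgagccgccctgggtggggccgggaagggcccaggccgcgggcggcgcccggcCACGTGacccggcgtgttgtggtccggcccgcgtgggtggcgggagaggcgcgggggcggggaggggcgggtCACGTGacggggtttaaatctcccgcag
Nampt: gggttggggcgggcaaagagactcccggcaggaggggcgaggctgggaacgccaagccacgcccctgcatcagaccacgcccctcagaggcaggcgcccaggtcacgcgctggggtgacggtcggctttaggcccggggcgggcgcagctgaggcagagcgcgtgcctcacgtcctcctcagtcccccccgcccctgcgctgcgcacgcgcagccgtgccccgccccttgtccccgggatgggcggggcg
Counting both strands, the GC box letters occurred 6 times in the stretch of Sirt1 and 5 times in that of Nampt. Of all 32851 mouse promoter windows searched in the same way, 6.02% held the E-box letters and 32.7% the GC box letters. Among the 12 windows of the 10 genes, that of Sirt1 was the one with E-box letters. For Sirt4, 216 of the 250 bases upstream of the RefSeq start lay in annotated exons. These matches are descriptions of letters, and the diets were not compared on any measure of binding.

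Few differences of these genes between diets had an adjusted p under 0.05. Whether the counts below differ from the shares of all genes was not tested. Against AL, none of the 10 reached an adjusted p under 0.05 on DR by the quasi-likelihood test of edgeR, while 3.06% of the 19052 genes tested did (583 genes). Before adjustment, 3 of the 10 had p under 0.05, all higher on DR (Sirt4, Sirt5 and Sirt6), against 18.0% of all genes. By DESeq2, Sirt4 alone was called, against 5.31% of all genes. The 4 DR mice did not overlap the 4 AL mice for 1 of the 10, Sirt4, against 10.9% of all genes. The median log2 fold change of the 10 was 0.06, beside 0.0036 over all genes tested. On KD, none of the 10 was called against AL, as for all genes (0% of 19036, with 10 or 0.0525% called by DESeq2, none of them among the 10), and 2 had p under 0.05 before adjustment, both lower on KD (Sirt1 and Nmnat3), against 4.87% of all genes. Those same 2 genes did not overlap between KD and AL, against 2.96% of all genes. The comparisons of DR and of KD with AL share the AL mice, so DR and KD were also compared directly. There 1 of the 10 was called, Sirt4, higher on DR, against 4.94% of 19087 genes. DESeq2 called Sirt4 and Nmnat2, against 7.01% of all genes. By edgeR, Sirt4 and Nmnat2 were the 2 genes that had p under 0.05 before adjustment, against 18.7% of all genes, and the same 2 did not overlap, against 11.8%.

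The precision of these differences, Sirt4 included, can be read from the intervals. For the 9 genes other than Nmnat3, the 95% intervals of the difference between DR and AL together ran from -12.6% to 21.2%, those between KD and AL from -14.6% to 16.9%, and those between DR and KD from -14.7% to 24.0%. Larger changes of these mRNAs lay outside the intervals.

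**Figure D2:**
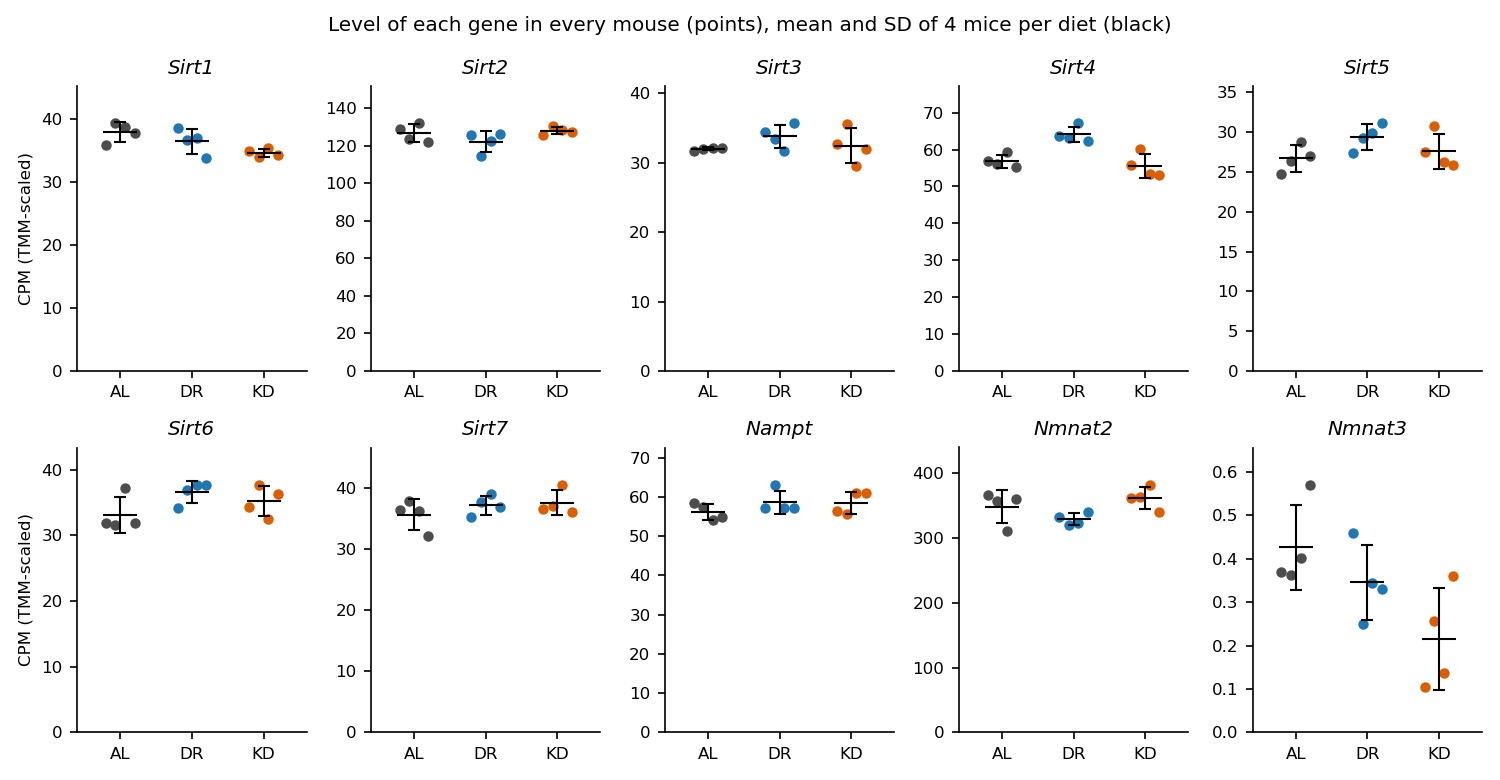
Level of each of the 10 genes in CPM (vertical axes start at 0 and differ between panels) in every mouse, with the mean and SD of 4 mice per diet in black. The 4 DR mice lie above all AL and KD mice for Sirt4 and below all KD mice for Nmnat2. KD mice lie below all AL mice for Sirt1 and Nmnat3, and for the other genes DR overlaps both other diets.

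Sirt4 was the member with the clearest difference between diets. SIRT4 is a mitochondrial enzyme known to restrain glutamate dehydrogenase and to remove unusual acyl groups from enzymes of amino acid breakdown. Its mRNA was at 56.8, 56.0, 59.3 and 55.2 CPM in the AL mice, at 63.7, 63.2, 67.2 and 62.3 CPM in the DR mice and at 55.7, 60.2, 53.4 and 53.1 CPM in the KD mice. The lowest DR mouse was thus above the highest AL mouse and the highest KD mouse, while AL and KD mice overlapped. Mean levels were 56.8 ± 1.78 CPM on AL, 64.1 ± 2.13 CPM on DR and 55.6 ± 3.26 CPM on KD (SD, n = 4). Against AL, Sirt4 was 12.8% higher on DR (95% interval 5.53% to 20.5%; log2 fold change 0.17, standard error 0.045), with an adjusted p of 0.0505 by edgeR, which just misses the threshold of 0.05. Against KD it was 15.3% higher on DR (7.31% to 24.0%; log2 fold change 0.21, standard error 0.049), with an adjusted p of 0.0235 in the same test. Between KD and AL its log2 fold change was -0.03, with an adjusted p of 0.994 and an interval of -8.72% to 5.02%.

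Whether Sirt4 passed the threshold depended on the setting, while its direction did not. Against AL its adjusted p was 0.0191 with DESeq2, 0.0336 without scaling factors, 0.0339 when only genes above 10 CPM were tested, 0.0411 with all 12 libraries in the same fit, 0.0551 with RLE factors and 0.0682 without a filter. With a mouse left out it ranged from 0.0353 without AL replicate 3 to 0.154 without DR replicate 3, and the log2 fold change from 0.15 to 0.19. Against KD the call was kept in these 6 settings. It was lost without DR replicate 3 (adjusted p 0.0794), KD replicate 1 (0.0691), KD replicate 3 (0.0866) or KD replicate 4 (0.0823), with log2 fold changes of 0.18 to 0.25 over the 8 fits that left out a mouse.

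**Figure D3:**
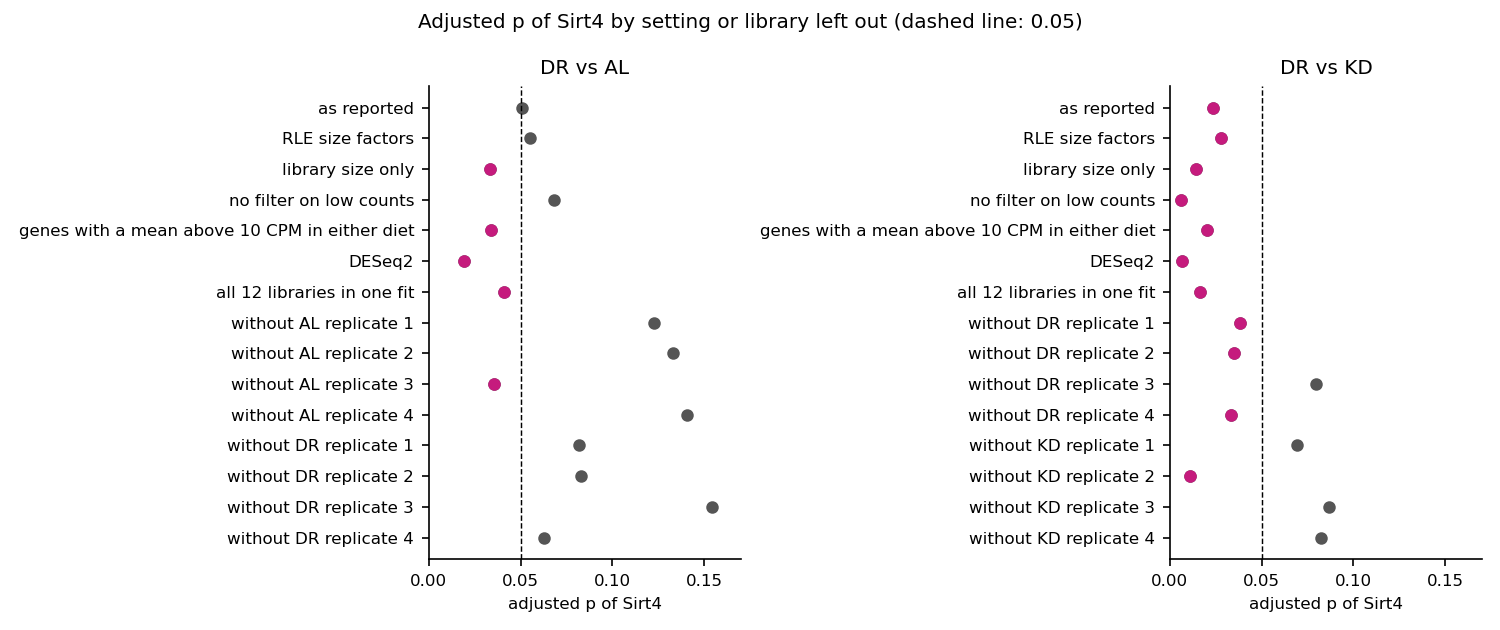
Adjusted p of Sirt4 (horizontal axis, dashed line at 0.05) in each setting and with each mouse left out, for DR against AL (left) and DR against KD (right), with magenta points under 0.05. Against AL 5 of 14 alternatives lie under 0.05, against KD 10 of 14.

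The other mitochondrial sirtuins lay nearer to the spread between mice. Sirt5, whose enzyme removes succinyl and malonyl groups, was at 24.7, 26.3, 28.8 and 27.1 CPM in the AL mice, at 27.3, 29.3, 29.9 and 31.1 CPM in the DR mice and at 27.5, 30.8, 26.3 and 25.9 CPM in the KD mice. All 3 diets overlapped. Its log2 fold change between DR and AL was 0.14 (standard error 0.062), with an adjusted p of 0.254 by edgeR. Sirt3, the main mitochondrial deacetylase, was at 31.7 to 32.2 CPM in the AL mice, 31.8 to 35.7 CPM in the DR mice and 29.5 to 35.6 CPM in the KD mice. Between DR and AL its log2 fold change was 0.08, with an adjusted p of 0.450, and the KD mice overlapped both. For neither gene did a comparison pass in any of the alternatives.

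Sirt6 and Sirt7 encode nuclear sirtuins, of chromatin and DNA repair and of the nucleolus. Sirt6 was at 31.8, 31.6, 37.3 and 31.9 CPM in the AL mice, at 34.2, 36.9, 37.7 and 37.7 CPM in the DR mice and at 34.4, 37.6, 32.5 and 36.3 CPM in the KD mice. AL replicate 3 stood apart from the other AL mice and lay among the DR values. With all mice the log2 fold change between DR and AL was 0.14 (standard error 0.063, adjusted p 0.239), and without AL replicate 3 it was 0.20, with an adjusted p of 0.0569 (0.0569 to 0.429 over the 14 alternatives). Sirt7 was at 32.0 to 37.8 CPM on AL, 35.2 to 38.9 CPM on DR and 36.0 to 40.5 CPM on KD, with adjusted p of at least 0.654 by edgeR in all 3 comparisons. The diets overlapped for this gene throughout.

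Sirt1, the nuclear sirtuin most often linked to food restriction, had no called difference on DR. It was at 35.9, 39.4, 38.8 and 37.8 CPM in the AL mice, at 38.5, 36.6, 37.0 and 33.8 CPM in the DR mice and at 34.9, 33.9, 35.4 and 34.4 CPM in the KD mice. DR mice overlapped both other groups, while every KD mouse was below every AL mouse. The log2 fold change between DR and AL was -0.06, with an interval of -11.3% to 4.18% and an adjusted p of 0.641. Between KD and AL it was -0.13 (standard error 0.046), or -8.60% (interval -14.6% to -2.23%), with an adjusted p of 0.981, so this difference did not pass over all genes. Sirt2, with Sirt4 the highest sirtuin per kb, was at 122 to 132 CPM on AL, 114 to 126 CPM on DR and 126 to 131 CPM on KD, and the lowest of its 3 adjusted p was 0.430, for DR against KD (log2 fold change -0.07).

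Of the NAD synthesis genes, Nmnat2 came nearest to a call. It was at 366, 357, 311 and 361 CPM in the AL mice, at 333, 320, 324 and 340.1 CPM in the DR mice and at 361, 363, 382 and 340.3 CPM in the KD mice. All DR mice were below all KD mice, by a narrow margin between the nearest 2, and AL replicate 3 was the lowest of all 12 mice. Nmnat2 on DR differed from KD by -8.96% (interval -14.7% to -2.83%; log2 fold change -0.14, standard error 0.044), with an adjusted p of 0.0951 by edgeR. DESeq2 called it (adjusted p 0.0263, log2 fold change -0.14), and over all 14 alternatives its adjusted p ran from 0.0263 to 0.271. Against AL its log2 fold change on DR was -0.08, with an adjusted p of 0.445, and without AL replicate 3 it was -0.13, with an adjusted p of 0.103 (0.103 to 0.714 over the 14 alternatives).

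Nampt was at 58.5, 57.4, 54.1 and 54.8 CPM in the AL mice, at 57.1, 63.1, 57.1 and 57.1 CPM in the DR mice and at 56.3, 55.7, 61.0 and 60.9 CPM in the KD mice. The diets overlapped in each comparison. DR differed from AL by a log2 fold change of 0.06 (interval -3.07% to 12.1%, adjusted p 0.570), and DR and KD were nearly level, at 0.0035 with an interval of -6.87% to 7.89%. Nmnat3 was near the limit of detection, with 15, 14, 14 and 18 counts in the AL mice, 18, 8, 12 and 12 in the DR mice and 4, 9, 5 and 14 in the KD mice. Scaled for library size, every KD mouse, at 0.104 to 0.360 CPM, was below every AL mouse, at 0.361 to 0.570 CPM, though the nearest 2 were almost equal. The log2 fold change between KD and AL was -0.96 (standard error 0.38), with an adjusted p of 0.981, and at such counts its interval was wide, from -70.9% to -9.28%.

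**Figure D4:**
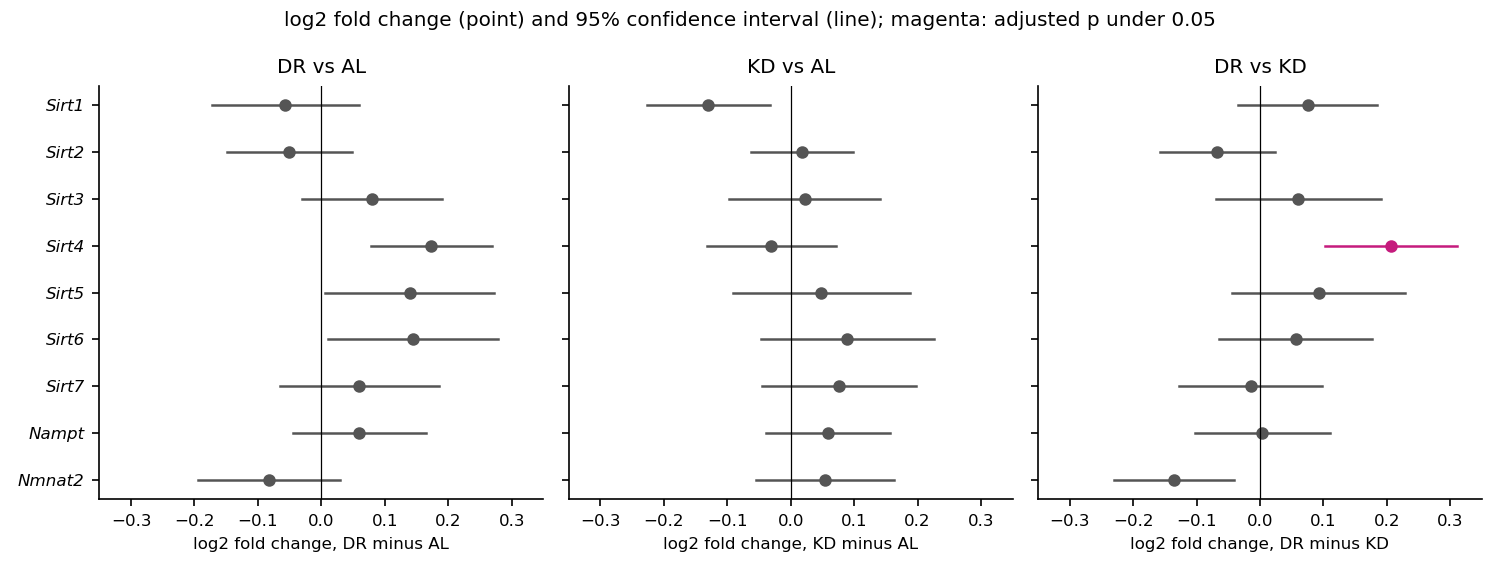
log2 fold changes (points) and their 95% confidence intervals (lines) for 9 genes in the 3 comparisons, with magenta for an adjusted p under 0.05; Nmnat3 is left out because its wide intervals would set the scale. Most intervals cover 0, and Sirt4 on DR against KD, at 0.21, is the called value.

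The genes were then set beside other lists of NAD metabolism and sirtuin biology. Of 13 other genes of NAD salvage, the Preiss-Handler route, NAD kinases and transport, 11 were tested on DR against AL. None was called by edgeR, against 3.06% of all genes, with a median log2 fold change of 0.04. Nmrk1, the kinase that brings in nicotinamide riboside, had the largest difference, at 6.19 ± 0.912 CPM on AL, 7.85 ± 0.584 on DR and 5.86 ± 1.09 on KD (SD, n = 4). Its log2 fold change was 0.34 between DR and AL, with an adjusted p of 0.120, and 0.42 between DR and KD, with an adjusted p of 0.0566 (0.0499 without DR replicate 1, 0.0321 without KD replicate 4). Nadsyn1, the NAD synthetase, was at 0.14 between DR and AL, with an adjusted p of 0.358. Of 12 genes of the kynurenine pathway, which builds NAD from tryptophan, 6 were tested in this comparison and none was called. Among those of at least 1 CPM, the largest differences were 0.17 for Kyat3 and 0.16 for Kyat1, 2 kynurenine aminotransferases, with adjusted p of 0.388 and 0.319. Without DR replicate 2 Kyat1 was at 0.25, with an adjusted p of 0.0457. Before adjustment 1 of the 11 and 0 of the 6 had p under 0.05, against 18.0% of all genes. DESeq2 called none of them, against 5.31%. On DR against KD edgeR likewise called none, of 11 and of 7 tested, against 4.94% of all genes. Of each list, 1 gene had p under 0.05 before adjustment, against 18.7%. Nmrk1 was called there by DESeq2 and, in edgeR, with library size only or without a filter on low counts. Kyat1, at 0.17 in this comparison (adjusted p 0.243), was called without DR replicate 2 (adjusted p 0.0117) and without the filter (adjusted p 0.0464).

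Among genes of NAD consumption and nicotinamide clearance, 25 of 28 entries were tested on DR against AL. Of these 1 was called, against 3.06% of all genes, and the median log2 fold change was 0.05. The called gene was Parp4, the vault-associated ADP-ribosyltransferase, at 24.3 ± 0.849 CPM on AL, 30.2 ± 2.79 on DR and 25.1 ± 0.950 on KD. It rose by 0.31 on DR against AL (adjusted p 0.0219) and by 0.27 against KD (adjusted p 0.0291), and no DR mouse overlapped another group. The call against AL was lost without AL replicate 1, 2 or 4 or DR replicate 3, and that against KD without DR replicate 2 or 3 or KD replicate 1, 2 or 3. Nudt13, a mitochondrial NADH hydrolase, was at 0.21 between DR and AL, with an adjusted p of 0.175. The principal poly(ADP-ribose) polymerase Parp1 was at -0.12 on DR against AL (adjusted p 0.138). Every DR mouse was below every AL mouse for it, beside 10.9% of all genes without overlap. Cd38, the main NAD glycohydrolase, was at -0.05 (adjusted p 0.784) with overlapping groups.

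Of 29 known regulators and substrates of sirtuins, all were tested on DR against AL. Called were 1 rise and 1 fall, against 3.06% of all genes in either direction, and the median log2 fold change was 0.02. Nr1h3, the liver X receptor alpha, rose by 0.32 against AL (adjusted p 0.0252) and by 0.27 against KD (0.0277). It was at 18.1 ± 1.40 CPM on AL, 22.7 ± 1.49 on DR and 18.8 ± 1.04 on KD, with no overlap between DR and either other group. The call against AL was lost without AL replicate 1, 2 or 4 or DR replicate 1 or 2, and that against KD without DR replicate 1 or 2 or KD replicate 1, 3 or 4. Per2, a clock repressor deacetylated by SIRT1, fell by 0.38 on DR against AL (adjusted p 0.0406), with overlapping groups and a call kept in 2 of 8 fits that left out a mouse (without AL replicate 3 or DR replicate 2).

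Of 3 forkhead genes, whose products are deacetylated by SIRT1, Foxo1 and Foxo3 were called between DR and KD and not between DR and AL, and whether these differences differ from each other was not tested. Foxo1 was at 23.1 ± 4.07 CPM on AL, 28.7 ± 2.37 on DR and 18.5 ± 2.53 on KD, with no overlap between DR and KD. It was 0.63 higher on DR than on KD (adjusted p 0.000611, called in all 8 fits that left out a mouse). DR against AL gave 0.31 (adjusted p 0.119, or 0.0353 without AL replicate 3), with a call also in 1 of the 6 other settings. KD against AL gave -0.32 (adjusted p 0.981). Foxo3, at 249 ± 31.3, 276 ± 9.71 and 241 ± 10.4 CPM on AL, DR and KD, was 0.19 higher on DR than on KD (adjusted p 0.0198). This call was lost without DR replicate 3 or KD replicate 3 and kept in 5 of the 6 other settings. Foxo4 was at 0.03 between DR and KD, with an adjusted p of 0.858. With Nr1h3, 3 of the 29 were thus called higher on DR than on KD and none lower, against 4.94% of all genes called in either direction. Per2 was at -0.31 in this comparison, with an adjusted p of 0.0584 (0.0236 without DR replicate 2 and 0.0283 without KD replicate 4), and was called without a filter on low counts. The SIRT1 repressor gene Hic1 had the largest difference on DR against AL of this list, at -0.46 with an adjusted p of 0.337. As a family of deacetylases that do not use NAD, 11 zinc-dependent histone deacetylases were tested. Of these 1 was called on DR against AL and 1 against KD, beside 3.06% and 4.94% of all genes. Both times it was Hdac10, with rises of 0.31 on DR against AL (adjusted p 0.0230) and 0.32 against KD (adjusted p 0.0220). The first call was lost without AL replicate 1 or 2 or DR replicate 3 or 4, the second without DR replicate 3 or 4 or KD replicate 1 or 4. Hdac5 was at -0.14 between DR and AL, with an adjusted p of 0.222 (0.0245 without AL replicate 3). With the filter on low counts, no gene of these 5 lists was called on KD against AL by edgeR or by DESeq2. Before adjustment 0, 1, 0, 1 and 1 of them, in the order given, had p under 0.05 by edgeR, against 4.87% of all genes. Without a filter on low counts edgeR called Foxo1, lower on KD.

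**Figure D5:**
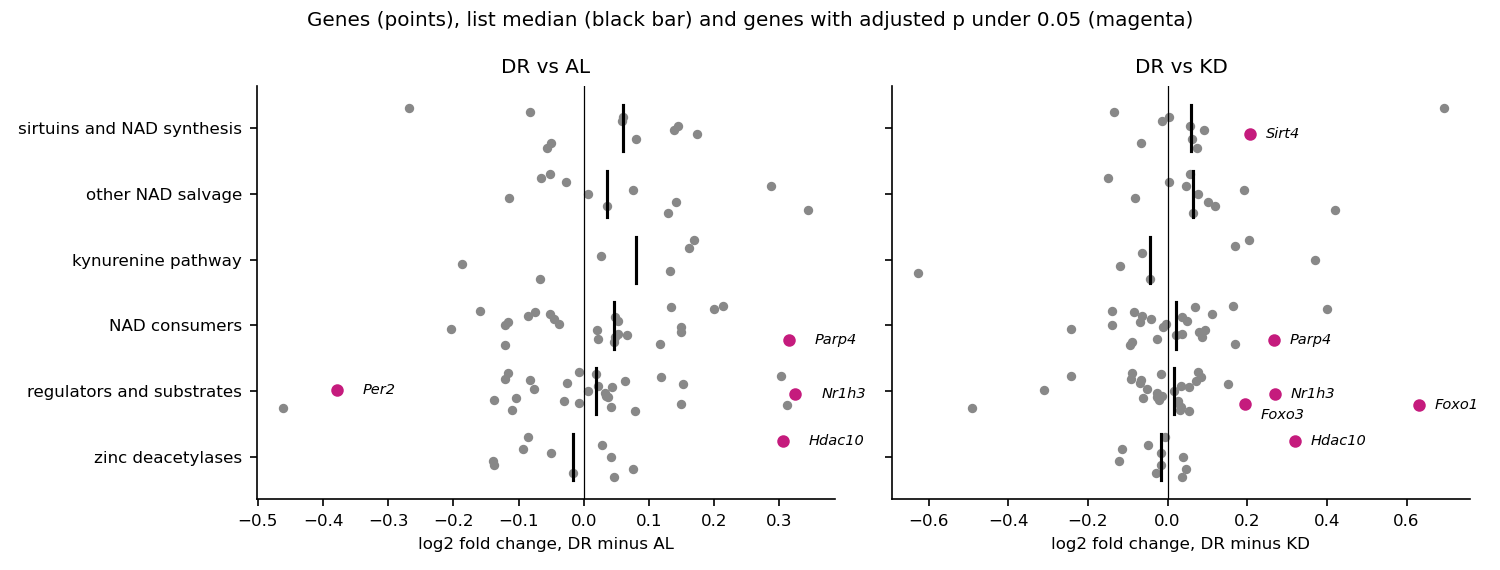
log2 fold changes of the 10 genes and of 5 lists of related genes on DR against AL (left) and DR against KD (right), with each gene as a point, the median of each list as a black bar and called genes in magenta with their names. Medians of all lists lie within 0.1 of 0, and Foxo1, at 0.63 against KD, has the largest called difference.

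Marker genes of several cell types were lower on DR as well, and their part in the differences given here was not tested. Of 10 oligodendrocyte markers 1 was called lower on DR against AL, and of 4 precursor markers 1. Of 6 Purkinje cell markers 2 were called lower, and of 6 Bergmann glia and astrocyte markers 2 (Aqp4 and Hopx). Of all 19052 genes tested, 331 were called lower. No marker of granule cells, microglia, endothelium, erythroid cells, choroid plexus or meninges was called. On DR against KD, 2 oligodendrocyte, 1 precursor, 2 Purkinje cell and 2 Bergmann glia and astrocyte markers were called lower. So were 1 granule cell and 1 choroid plexus marker, while 1 granule cell marker was called higher. Of all 19087 genes tested there, 463 were called lower and 479 higher. Summed Purkinje cell markers were at 6953 to 7470 CPM on AL, 5914 to 6834 CPM on DR and 6911 to 7140 CPM on KD. Those of Bergmann glia and astrocytes were at 1805 to 1948, 1605 to 1665 and 1766 to 1829 CPM, and in both lists every DR mouse was below every other mouse. Summed oligodendrocyte markers overlapped between diets, at 2391 to 3021, 2235 to 2767 and 2623 to 2842 CPM, as did Sirt2. Summed granule cell markers also overlapped between diets, at 5048 to 5556 CPM on AL, 5276 to 5468 CPM on DR and 5113 to 5426 CPM on KD. On KD against AL no marker was called by edgeR, as for all genes. Before adjustment all 5 erythroid markers had p under 0.05, lower on KD, against 4.87% of all genes. So did 1 Purkinje cell and 1 Bergmann glia and astrocyte marker, lower, and 1 microglia and 1 choroid plexus marker, higher. Summed erythroid markers were at 275 to 423 CPM on AL, 176 to 494 on DR and 238 to 270 on KD.

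Across mice, the 10 genes were set against the mean of the oligodendrocyte markers and against Dbp, as deviations from the mean of each diet over 12 libraries, which makes 20 relations. None passed after adjustment over the 20 in an exact permutation test over the 13824 pairings that keep each mouse within its diet (two-sided, lowest adjusted p 0.663). For Sirt2 and the oligodendrocyte markers, r was 0.13 (p = 0.748) and rho 0.13 (p = 0.743), with r = 0.09 without the 2 mice farthest from the median. For Nampt and Dbp, r was 0.10 (p = 0.782) and rho -0.19 (p = 0.585), and r turned to -0.55 without the farthest 2 mice. For Sirt1 and Dbp, r was 0.31 (p = 0.457) and rho 0.27 (p = 0.460), with r = 0.60 without the farthest 2. The lowest p of a rank correlation was 0.0370 for Nmnat2 and Dbp (rho -0.63, adjusted p 0.741; r = -0.46, p = 0.115).

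Among the 10 genes themselves, none of the 45 pairs passed after adjustment in the same exact test. The largest within-diet correlations by Pearson's r were -0.78 for Sirt6 and Nmnat2 (p = 0.0334, adjusted p 0.556; rho -0.74, p = 0.0248) and 0.73 for Sirt5 and Sirt6 (p = 0.0208, adjusted p 0.556; rho 0.69, p = 0.0351). Without AL replicate 3 and KD replicate 2, the mice farthest from the median, r was -0.63 and 0.44. By rank, Sirt3 and Nampt had the largest value, at rho -0.77 (exact p = 0.0290, adjusted p 0.316, r -0.52).

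Genes whose levels followed each member most closely over the 12 libraries were found by Pearson's r of log2 CPM among genes of at least 1 CPM. The libraries share diet, depth and dissection, so these values are descriptions. Sirt4 was followed by Ankzf1 (r = 0.96), Stk11ip (0.96) and Klc4 (0.96), with r of 0.85, 0.93 and 0.87 once diet means were subtracted. Sirt1 was followed by Nup155 (0.91), Rtn3 (0.89) and Ppp3r1 (0.89), and Sirt2 by Lrrn2 (0.91), Zfp629 (0.90) and Ppm1j (0.90). Nearest to Sirt3 were AI837181 (0.88), Nxpe3 (0.87) and Gpn3 (0.86). Fam3a was shared by Sirt5 (0.91) and Sirt6 (0.90). Sirt5 was further followed by Rnf123 (0.90) and Agap2 (0.89), Sirt6 by Myh14 (0.92) and Tnn (0.91), and Sirt7 by Cep152 (0.86), Zfp639 (0.81) and D430018E03Rik (0.80). Nampt was followed by Med28 (0.88), Ccdc84 (0.87) and Guk1 (0.86), Nmnat2 by Chp1 (0.93), 4933417D19Rik (0.93) and Zbtb14 (0.92), and Nmnat3, at its few counts, by Gm5905 (0.90), Wrap53 (0.86) and B3galt4 (0.83).

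Several members start near a gene transcribed the other way. Within 1 kb lay Dnajc12 beside Sirt1 (739 bases between starts), Nfkbib beside Sirt2 (777), Psmd13 beside Sirt3 (341) and Ankrd24 beside Sirt6 (743). None of the 4 neighbors was called in any comparison by edgeR. Dnajc12, a co-chaperone gene, was at 0.18 on DR against AL (adjusted p 0.144) and 0.21 on DR against KD (adjusted p 0.0740), beside -0.06 and 0.07 for Sirt1. The start of Sirt1 used here is that of the deposited table, at 63381704. It lies far upstream of the RefSeq start and of the promoter stretch shown above, at 63339051 to 63339285. Dnajc12 is thus not within 1 kb of that stretch.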

How the data were processed

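Poly(A) RNA libraries (TruSeq kit, which does not keep strand) of 12 mice were sequenced. Per the labels, the authors trimmed reads with Trimmomatic 0.39, aligned them with STAR 2.7.0f to GRCm38.p6 and counted them with featureCounts of Subread 1.6.4, and the deposited table holds the counts per gene without normalization, with exonic lengths. The strand setting is not given in the sources used here. Library totals were 31712084 to 40798644 counts.

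In R 4.3.3, the 8 libraries of each comparison were fitted alone with edgeR 4.0.16 (filterByExpr with a minimum count of 10 and minimum total of 15, TMM factors of 0.988 to 1.02, quasi-likelihood test, Benjamini-Hochberg adjustment over all genes tested, threshold 0.05). Called means an adjusted p under 0.05. CPM used TMM-scaled totals, and log2 CPM a prior count of 2. Symbols of 54723 genes were matched from GENCODE, and promoter windows of all 10 members came from RefSeq. Diets were taken from the labels. Replicate numbers follow sample order and only name mice, and p-values set a difference or relation against the spread between mice within diets. The members and lists were chosen with earlier results of these data known. Of the other lists, called genes (up to 5 a list by lowest p) and the 2 with the largest change on DR among genes of at least 1 CPM were named, and Parp1, Cd38 and Dnajc12 were named after their values were seen. A few genes of the lists are not reported here. Alternatives were RLE or no scaling factors, no filter, a cut at 10 CPM, DESeq2 1.42.0, all 12 libraries in the same fit, and leaving out each mouse. The fit was tested on simulated counts.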

Additional observations from a re-analysis of the deposited data

Results flagged for a closer look

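Gaps within a diet were examined with Dixon's test in 36 groups of 4 mice, in which chance alone flags about 1 group in 20, and 4 were found. Sirt6 in AL replicate 3 was at 37.3 CPM, above 31.6 to 31.9 CPM in the other AL mice. Nmnat2 in the same mouse was at 311 CPM, below 357 to 366 CPM in the other AL mice. Nampt in DR replicate 2 was at 63.1 CPM, with the other DR mice between 57.11 and 57.15 CPM, a range that happened to be very narrow. The mean of the oligodendrocyte markers in KD replicate 2 was at 6.25 log2 CPM, below 6.35 to 6.36 in the other KD mice.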

How the results depend on the processing

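No paired analysis was possible because the labels give no replicate numbers shared between diets. On DR against AL, 1 of the 10 genes (Sirt4) was called, in place of 0, with library size only, with a cut at 10 CPM, with DESeq2 and with all 12 libraries in the same fit, and 0 to 1 with a mouse left out (1 without AL replicate 3). Of all genes, 1258 were called in place of 583 without a filter and 1012 with DESeq2, and 235 (without DR replicate 3) to 712 (without AL replicate 3) with a mouse left out. On KD against AL, 118 genes in place of 0 were called without a filter, 10 with DESeq2 and 0 to 6 with a mouse left out. On DR against KD, 2 of the 10 genes were called with DESeq2, against 7.01% of all genes (1338), and 0 to 1 with a mouse left out, and of all genes 1503 in place of 942 without a filter and 467 (without KD replicate 3) to 946 with a mouse left out. The cause of these shifts was not tested.

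Log2 fold changes close to 0 turned in sign. On KD against AL, with a mouse left out, Sirt2 ran from -0.00063 (without AL replicate 4) to 0.040, Sirt3 from -0.026 (without KD replicate 2) to 0.065 and Sirt5 from -0.0082 (without KD replicate 2) to 0.088. On DR against KD, Sirt7 turned with library size only (0.0053) and ran from -0.038 to 0.023 with a mouse left out, above 0 without DR replicate 1 (0.010) or KD replicate 3. Nampt turned with RLE factors (-0.0011) and DESeq2 (-0.0012) and ran from -0.033 to 0.024, below 0 without DR replicate 2, KD replicate 1 or KD replicate 2. Fits of the named genes of the other lists were added after seeing the data. Divided by the exonic bases that no other gene shares, Sirt3 was at 6.28 in place of 5.48 CPM per kb. With 4 to 18 counts a library, Nmnat3 differences could not be resolved.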
